A study of Mus musculus with 12 samples.

Results

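Scn7a, Erbb3, Fabp7 and Foxd3 are genes of Schwann cell precursors, the glial cells of neural crest origin that reach the embryonic lung along its nerves. They were chosen by symbol, and are 4 of the 31078 genes of the deposited count table. All 4 passed the filter on low counts and were among the 9519 genes tested. RNA was sequenced from whole mouse lungs at embryonic day E12.5 on a C57BL/6 background, in 4 groups of 3 libraries: wild-type (wt) left, wt right, Intu knockout (IntuKO) left and IntuKO right. Intu encodes a protein of primary cilium assembly. The parents carried an Intu knockout allele. What the allele deletes is not stated in the labels, and neither is whether replicate libraries are separate embryos. The p-values therefore measure the spread between these libraries, which may be in part technical.

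Schwann cell precursors leave the neural crest, migrate along growing axons and give rise to Schwann cells, and in several organs to autonomic neurons and other crest derivatives. Axons keep them alive by presenting neuregulin 1 (Nrg1), which binds the receptor ErbB3 together with its partner ErbB2. Foxd3 is a forkhead transcription factor of early crest cells and glial precursors. Fabp7, the brain lipid-binding protein, carries fatty acids in radial glia and in immature peripheral glia, and Scn7a encodes Nax, an atypical sodium channel of glia and Schwann cells that does not open with voltage as its relatives do. None of these genes is restricted to glia: Erbb3 is also an epithelial receptor, and Scn7a is also transcribed in other non-neuronal cells.

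Total counts were 10290103 to 10753386 per library. Levels are given in CPM (counts scaled to a common library total) after trimmed-mean (TMM) scaling, and a gene is called where its Benjamini-Hochberg adjusted p over all tested genes is under 0.05. Intu itself was at 28.2 to 34.0 CPM in wt and 26.2 to 31.4 CPM in IntuKO libraries (log2 difference -0.16, SE 0.06, adjusted p = 0.162). A count over the whole gene does not check the labels, since what the allele deletes is not stated. Gli1, a direct target of the Hedgehog pathway that depends on cilia, was at 345 to 394 CPM in the 6 wt libraries and at 151 to 185 CPM in the 6 IntuKO libraries, with no overlap. Left and right libraries of 1 genotype and number deviated together from their group means (correlation across genes 0.272 to 0.517 over 6 such pairs). They are called pairs below, and a fit with the pairs as a block stands beside the left-right results that it changes.

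Scn7a had the lowest levels in the IntuKO lungs and, within each genotype, the lower levels on the right. Its exons hold 7338 bases on the minus strand of chromosome 2 (chr2:66673425-66784914, GRCm38, ENSMUSG00000034810). In wt left lungs it was at 42.8, 28.8 and 28.4 CPM in libraries 1, 2 and 3 (33.3 ± 8.17, SD, n = 3). The wt right lungs had 26.4, 22.9 and 19.5 CPM (22.9 ± 3.43, SD, n = 3). In IntuKO left lungs the values were 6.85, 27.0 and 15.9 CPM (16.6 ± 10.1, SD, n = 3). The IntuKO right lungs had 2.93, 17.6 and 7.23 CPM (9.24 ± 7.52, SD, n = 3). On each side every IntuKO library lay below every wt library, on the left by a narrow margin (27.0 against 28.4 CPM), while the 2 genotypes overlapped once the sides were put together. A position of all IntuKO libraries below all wt libraries was found for 8.26% of tested genes on the left and 9.71% on the right.

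**Figure D1:**
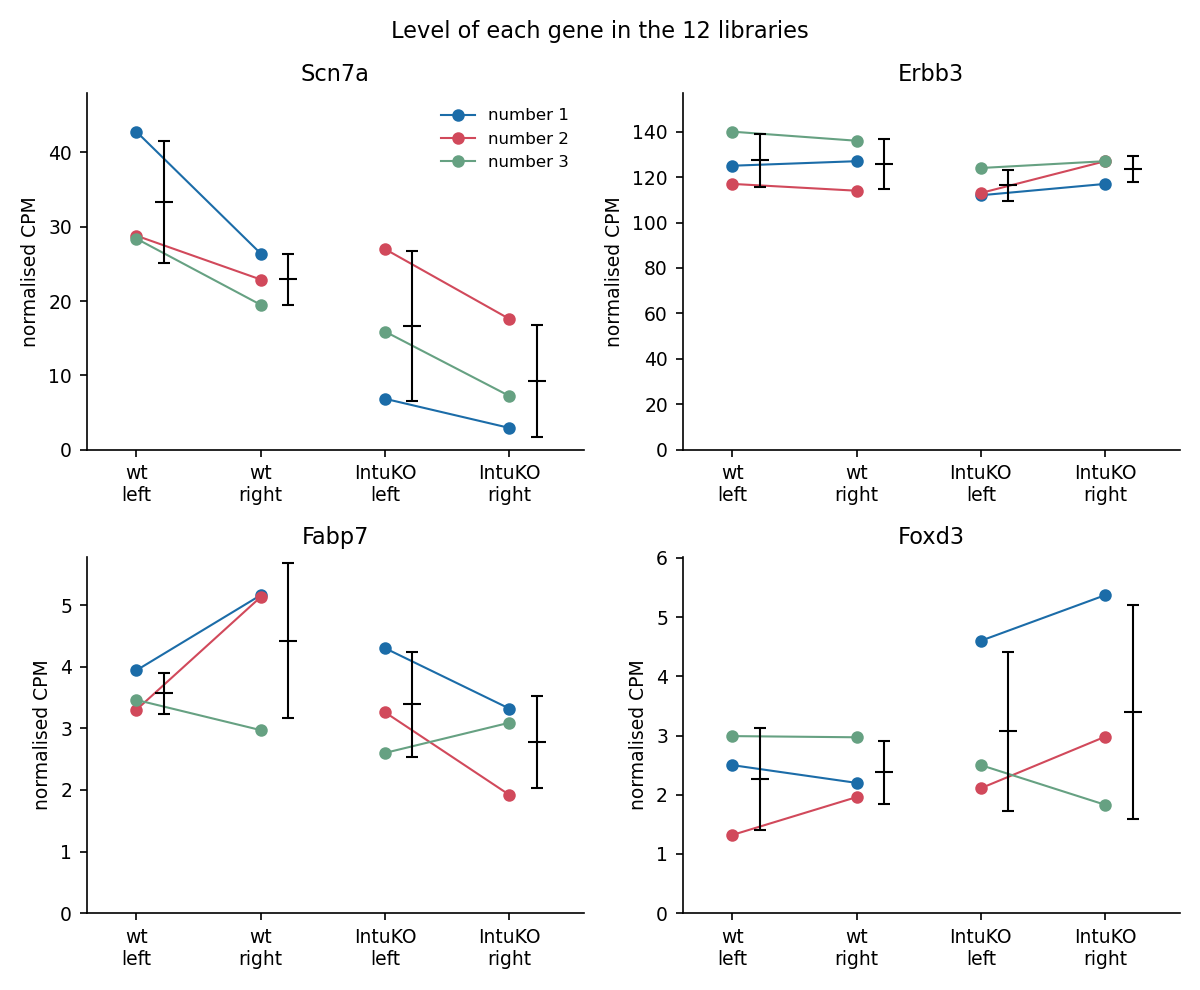
Level of the 4 genes in normalised CPM (vertical axes, linear, from 0) in each of the 12 libraries, by group; points are libraries, lines join the left and right library of 1 genotype and number, and the bars beside them are the mean ± SD of 3 libraries. Scn7a lines fall from left to right in all 6 pairs and IntuKO points spread from 2.93 to 27.0 CPM, while all 12 Erbb3 points lie between 112 and 140 CPM.

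Over both sides Scn7a was at 0.449 of its wt level in IntuKO lungs, a log2 difference of -1.16 (SE 0.33, 95% interval -1.87 to -0.44). The difference did not pass the test across all genes in edgeR's quasi-likelihood fit (adjusted p = 0.0597), in which 5.70% of tested genes were called. None of the 4 genes was called over both sides in that fit. Scn7a alone had an unadjusted p under 0.05, as did 19.7% of tested genes, and it was called by limma-voom (log2 difference -1.41, adjusted p = 0.0222) and not by DESeq2. Treated as independent, the 12 libraries count each pair as 2 observations. With left and right counts of a pair summed, leaving 3 values per genotype, Scn7a had a log2 difference of -1.12 (SE 0.42, adjusted p = 0.286), where 1.38% of genes were called. limma-voom with a random effect for the pair called it (log2 difference -1.41, SE 0.32, adjusted p = 0.0229), as were 3.61% of genes.

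The genotype difference of Scn7a by side was -1.0 (log2) on the left (SE 0.45, adjusted p = 0.439) and -1.31 on the right (SE 0.49, adjusted p = 0.250). Neither passed the test, in which 1.18% of genes were called on the left and 1.51% on the right. None of the other members was called on either side by edgeR, DESeq2 or limma-voom, and Fabp7 on the right had an unadjusted p under 0.05. The difference between the 2 sides' effects, the genotype by side interaction, was 0.30 (SE 0.66, adjusted p = 1.00).

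Scn7a varied more among the IntuKO libraries than among the wt libraries. Within IntuKO the highest library was 9.23-fold above the lowest, and within wt it was 2.19-fold. The coefficient of variation was 61.0% on the left and 81.4% on the right in IntuKO, where counting error alone gives 7.62% and 10.2%. Pair 2 of the IntuKO lungs was highest and pair 1 lowest on both sides. Without both libraries of IntuKO 2 the difference over both sides was -1.86 (adjusted p = 0.00108), and it was -1.55 on the left (adjusted p = 0.0498) and -2.17 on the right (adjusted p = 0.0128), all called. Without both libraries of IntuKO 1 it was -0.76 over both sides (adjusted p = 0.0652). Xist, the RNA of the inactive X chromosome, followed the same order of the IntuKO pairs. It was at 118 and 107 CPM in pair 1, 912 and 985 CPM in pair 2, and 496 and 388 CPM in pair 3 (left, then right). In the wt lungs Xist was at 1271 to 2269 CPM and did not follow the order of Scn7a. Every wt library lay above every IntuKO library (107 to 985 CPM), so the genotypes differed in Xist as well. What goes with Xist and what goes with genotype cannot be told apart here, for Scn7a or for the other genes compared between genotypes. Pdk1, a kinase that limits pyruvate entry into mitochondria, was at 193 and 192 CPM in IntuKO pair 2, at 109 and 110 CPM in pair 1 and at 93.4 and 82.2 CPM in pair 3, so it shared the highest pair with Scn7a and not the lowest. Alb, the albumin gene of liver, was at 40.3 CPM in IntuKO left 1 and at no more than 2.70 CPM in the other 11 libraries. The part of these differences between libraries in the result for Scn7a was not tested.

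Between the sides, Scn7a was higher in the left lung in 6 of 6 pairs, a pattern that 3.46% of tested genes shared. The ratio of left to right was 1.61, 1.26 and 1.44 in the wt pairs and 2.14, 1.53 and 2.11 in the IntuKO pairs. In wt the left and right libraries did not overlap, with left above right, as for 4.32% of genes; in IntuKO they overlapped. With the libraries as independent the difference of left minus right was 0.69 over both genotypes (SE 0.33, adjusted p = 0.940), 0.54 in wt (SE 0.44, adjusted p = 1.00) and 0.84 in IntuKO (SE 0.50, adjusted p = 1.00). None of the 4 genes was called in these tests, by DESeq2 or by limma-voom; the edgeR tests called 0.0840%, 0.0105% and 0% of genes. At an unadjusted p under 0.05 there were 358 genes (3.76%) in the test within IntuKO, and none of the 4 was among them there, nor in wt or over both genotypes.

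With the pairs as a block, edgeR called Scn7a over both genotypes and in each. Left exceeded right 1.63-fold over both genotypes (log2 difference 0.70, SE 0.08, 95% interval 0.54 to 0.87, adjusted p = 9.41e-06), where 1.33% of genes were called and Scn7a ranked 10 by p. It was 1.45-fold in wt (0.53, SE 0.10, adjusted p = 0.00461) and 1.84-fold in IntuKO (0.88, SE 0.13, adjusted p = 0.00109), where 0.662% and 0.452% of genes were called. The limma-voom fit with a random effect for the pair did not call it over both genotypes (0.75, SE 0.23, adjusted p = 0.258). In the edgeR fit with the block the interaction was 0.34 (SE 0.16, adjusted p = 0.998), with 0.0210% of genes called, so a larger side difference in IntuKO was not called. For scale, Hoxa6, a positional homeobox gene, was at 8.23 to 12.8 CPM in the 6 left libraries and at 17.3 to 25.3 CPM in the 6 right libraries. Foxd3, Fabp7 and Erbb3 were not called between the sides with the block either. Their intervals for left minus right over both genotypes were -0.46 to 0.26, -0.35 to 0.34 and -0.11 to 0.04 on the log2 scale.

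**Figure D2:**
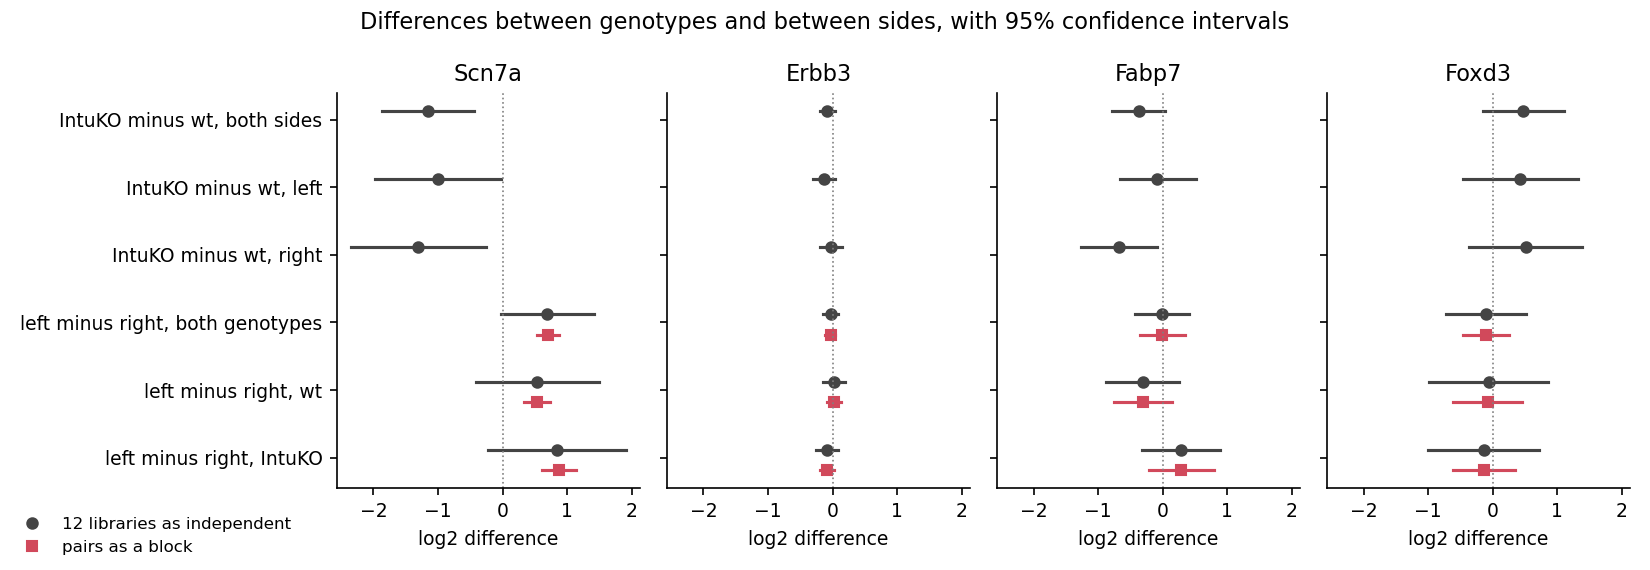
Log2 differences (horizontal axes) of the 4 genes between genotypes and between sides; points are estimates from edgeR and bars are 95% confidence intervals, in grey with the 12 libraries as independent and in red with the pairs as a block. The red intervals for Scn7a between the sides lie above 0, while those of Erbb3, Fabp7 and Foxd3 include 0.

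Scn7a and Foxd3 are the members whose estimates between the genotypes lay farthest from 0, in opposite directions, and their RefSeq sequences for the 250 bases before the start of transcription are shown to let the 2 promoters be compared (GRCm38.p6, 5′ to 3′ on the strand of the gene). Scn7a lies at chr2:66784911-66785160 on the minus strand and Foxd3 at chr4:99656049-99656298 on the plus strand. Capitals mark a match to 1 of 4 motifs that were chosen with the results of the members known, searched on both strands.
Scn7a: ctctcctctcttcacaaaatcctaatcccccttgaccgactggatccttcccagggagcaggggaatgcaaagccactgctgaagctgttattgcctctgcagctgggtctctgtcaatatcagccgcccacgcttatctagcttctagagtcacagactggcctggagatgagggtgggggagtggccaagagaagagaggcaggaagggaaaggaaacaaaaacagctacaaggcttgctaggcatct
Foxd3: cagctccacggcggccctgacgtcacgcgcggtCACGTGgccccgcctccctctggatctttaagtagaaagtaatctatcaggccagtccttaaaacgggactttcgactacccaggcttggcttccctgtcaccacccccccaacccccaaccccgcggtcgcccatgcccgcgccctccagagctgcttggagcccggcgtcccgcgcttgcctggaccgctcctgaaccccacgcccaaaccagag
The Foxd3 window held the E-box CACGTG, which 6.02% of 32851 promoter windows of the same length hold. Neither window held the SOX motif ACAAAG (16.5% of windows), the AP-2 motif GCCNNNGGC (13.7%) or the GLI motif TGGGTGGTC (0.225%), in these letters. The window of Fabp7 held none of the 4. The motifs do not overlap each other, and a match is a description of the letters only.

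Foxd3 was the member with the lowest level per length, and the member whose estimate was higher in IntuKO. It is a gene of 1 exon of 2324 bases (chr4:99656299-99658622, plus strand, ENSMUSG00000067261). It was at 2.50, 1.32 and 2.99 CPM in wt left libraries 1, 2 and 3 (2.27 ± 0.858, SD, n = 3) and at 2.20, 1.96 and 2.97 CPM in wt right (2.37 ± 0.526, SD, n = 3). The IntuKO left lungs had 4.60, 2.11 and 2.50 CPM (3.07 ± 1.34, SD, n = 3) and the IntuKO right lungs 5.37, 2.98 and 1.83 CPM (3.39 ± 1.81, SD, n = 3). Both libraries of IntuKO pair 1, which held the least Scn7a, held the most Foxd3, and the other IntuKO libraries overlapped the wt range. The log2 difference of 0.47 between genotypes (SE 0.29, 95% interval -0.15 to 1.10, adjusted p = 0.400) did not pass the test. It rested on pair 1: without both sides of IntuKO 1 it was 0.02, and without IntuKO right 1 or IntuKO left 1 alone 0.23 and 0.27. It was 0.34 without wt left 2, and 0.27 without both sides of wt 2. These values rest on 14 to 55 counts per library. At the mean counts of the groups, counting error gives a coefficient of variation of 16.9 to 20.4%. It is larger for the libraries with the lowest counts.

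None of the neural crest transcription factors, Foxd3 included, was called: 0 of 6 tested genes in edgeR, DESeq2 and limma-voom, where edgeR called 5.70% of all genes. Of the 6, 1 had an unadjusted p under 0.05, as did 19.7% of all genes. The median log2 difference was 0.03 beside 0.00 for all tested genes. Tfap2b, an AP-2 factor of crest and sympathetic cells, was at 0.661 to 1.31 CPM in wt and 0.768 to 5.47 CPM in IntuKO libraries (log2 difference 1.27, SE 0.46, adjusted p = 0.128, unadjusted p = 0.0146). Msx1, a homeobox factor of crest and mesenchyme, had a log2 difference of -0.32 (SE 0.20, adjusted p = 0.419). Foxd2, the other tested member of the Foxd family, stood at -0.41 and was not called. Sox10, the factor that defines peripheral glia most closely, was not analysed here.

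Erbb3 was the most abundant member and the least variable. Per kilobase of exon it averaged 20.5 CPM over the 12 libraries, against 2.83 for Fabp7, 2.80 for Scn7a and 1.19 for Foxd3. The gene lies on the minus strand of chromosome 10 with 6016 exonic bases (chr10:128567523-128589652, ENSMUSG00000018166). The wt left lungs had 125, 117 and 140 CPM (128 ± 11.5, SD, n = 3) and the wt right lungs 127, 114 and 136 CPM (126 ± 10.7, SD, n = 3). The IntuKO left lungs had 112, 113 and 124 CPM (116 ± 6.91, SD, n = 3) and the IntuKO right lungs 117, 127 and 127 CPM (124 ± 5.58, SD, n = 3). All groups overlapped, and the highest library was 1.25-fold above the lowest. The genotype difference was -0.08 on the log2 scale (SE 0.06, 95% interval -0.20 to 0.04, adjusted p = 0.478). With the pairs summed the interval was -0.23 to 0.08. The 8 epithelial genes in the table, among the cells that also use Erbb3, summed to 624 to 747 CPM over the 12 libraries, and 1 of the 8, Elf3, rose (0.54, SE 0.14, adjusted p = 0.0329), a call lost with the pairs summed (adjusted p = 0.203). Their part in the level of Erbb3 was not tested.

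The ligand on the other side of this receptor fell in IntuKO lungs. Nrg1 was at 15.1 to 18.9 CPM in the 6 wt libraries and at 6.61 to 10.9 CPM in the 6 IntuKO libraries, so the genotypes did not overlap, which was true of 2.65% of tested genes in that direction. The log2 difference was -1.08 (SE 0.12, adjusted p = 1.05e-04), and it passed on the left (-0.99, SE 0.17, adjusted p = 0.0102), on the right (-1.17, SE 0.17, adjusted p = 0.00246) and with the pairs summed (-1.08, SE 0.11, adjusted p = 0.00479). Tgfa, which encodes a ligand of the EGF receptor, was at 17.4 to 20.2 CPM in wt and 11.8 to 15.9 CPM in IntuKO libraries (-0.37, SE 0.09, adjusted p = 0.0234), a call lost with the pairs summed (adjusted p = 0.183). These 2 were the genes called among 10 tested of the neuregulin and EGF-family list, both lower. Across all genes 3.62% were called lower and 2.08% higher. The list's median log2 difference was -0.02.

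**Figure D3:**
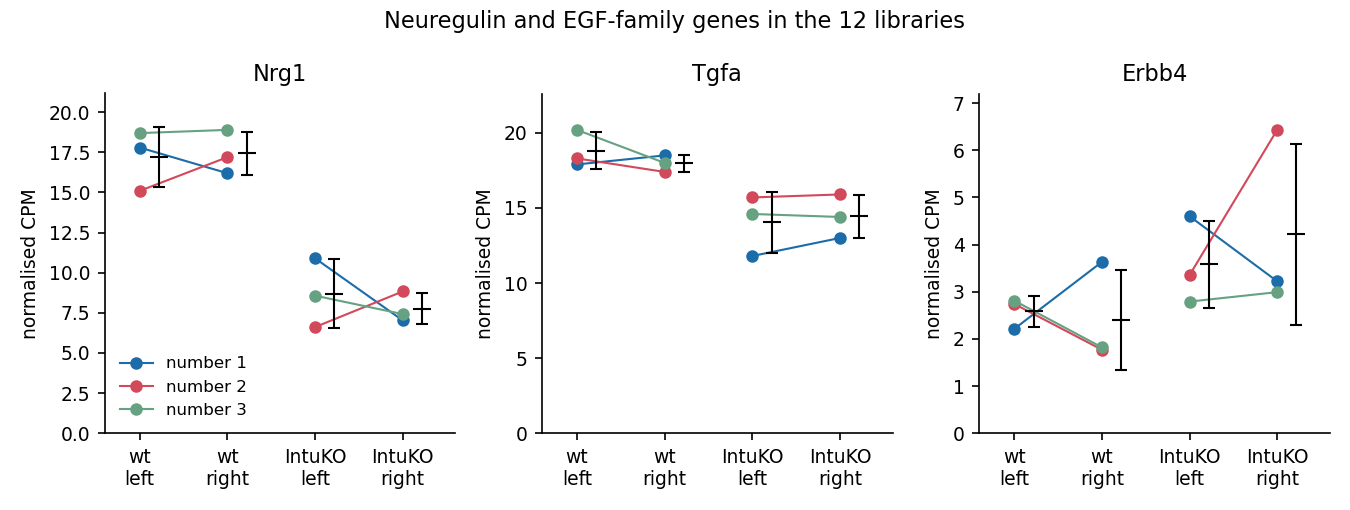
Levels in normalised CPM (vertical axes, linear, from 0) of Nrg1, Tgfa and Erbb4 in the 12 libraries by group; points are libraries, lines join pairs and the bars are mean ± SD of 3 libraries. Nrg1 lies at 15.1 to 18.9 CPM in wt and at 6.61 to 10.9 CPM in IntuKO, and the Erbb4 ranges overlap.

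Erbb4, the other neuregulin receptor that was tested, had a log2 difference of 0.64 (SE 0.25, adjusted p = 0.160). Among further ligands Egf stood at 0.25 and Btc, betacellulin, at 0.55, neither called. Lrig1, which promotes turnover of ErbB receptors, stood at -0.10. Rnf41, the ubiquitin ligase that lowers ErbB3, was at 0.02. The feedback inhibitor Errfi1 (-0.02) and the adaptor Shc1 (-0.01) were likewise not called. Areg, Ereg and Epgn were too low to test. Between the sides none of the 10 genes was called over both genotypes by edgeR (with or without the block), DESeq2 or limma-voom, and 0 had an unadjusted p under 0.05.

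Fabp7 was low in every group. Its exons hold 1250 bases on the plus strand of chromosome 10 (chr10:57784881-57788450, ENSMUSG00000019874). It was at 3.94, 3.30 and 3.46 CPM in wt left (3.57 ± 0.331, SD, n = 3) and 5.16, 5.13 and 2.97 CPM in wt right libraries (4.42 ± 1.26, SD, n = 3). The IntuKO left lungs had 4.30, 3.26 and 2.60 CPM (3.39 ± 0.859, SD, n = 3) and the IntuKO right lungs 3.32, 1.92 and 3.09 CPM (2.78 ± 0.750, SD, n = 3). The groups overlapped on each side. The genotype difference was -0.37 over both sides (SE 0.19, 95% interval -0.79 to 0.04, adjusted p = 0.311) and was not called. It was -0.08 on the left (SE 0.27, adjusted p = 0.961) and -0.67 on the right (SE 0.27, adjusted p = 0.297), and the interaction of 0.60 (SE 0.39, adjusted p = 1.00) was not called. Counts of 20 to 55 per library limit these values. The counting coefficient of variation was 14.6 to 18.7% at the mean counts of the groups, and is larger for the libraries with the lowest counts.

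The other fatty acid binding proteins that passed the filter did not change by the test either: 0 of 4 tested, Fabp7 included, in edgeR, DESeq2 and limma-voom. At an unadjusted p under 0.05 there were 0 of the 4. Across all genes edgeR called 5.70%, and 19.7% had an unadjusted p under 0.05. Fabp5, the epidermal form, had group means of 95.5 and 96.8 CPM in wt left and right and 86.3 and 85.8 CPM in IntuKO left and right (log2 difference -0.16). Fabp3 of muscle stood at 0.02 and Fabp4 of fat and endothelium at 0.15. The 5 tested genes of the sodium channel list, Scn7a among them, likewise held 0 calls in edgeR and DESeq2; 1, Scn7a, had an unadjusted p under 0.05 and was called by limma-voom. The voltage-gated channels of neurons Scn1a (0.19), Scn2a (0.05) and Scn3a (-0.15) had differences closer to 0 than that of Scn7a.

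Radial glia of the central nervous system also use Fabp7, and melanoblasts share the crest origin of Foxd3. Of the 8 neural progenitor genes in the table Nes alone was tested, and it fell (-0.22, SE 0.04, adjusted p = 0.0108), a call lost with the pairs summed (adjusted p = 0.0867). Their summed level, nearly all from Nes, was 340 to 355 and 347 to 385 CPM in wt left and right and 290 to 293 and 303 to 361 CPM in IntuKO left and right. The defining genes Sox1, Nkx2-2, Dbx1 and Neurog2 did not exceed 0.0978 CPM in any library. Of 6 melanoblast genes 3 were tested and 0 called in edgeR, which called 5.70% of all genes. DESeq2 and limma-voom each called 1 of the 3, and 665 and 532 of all 9519 genes. Kit, a receptor of melanoblasts and mast cells, stood at -0.31 (SE 0.09, adjusted p = 0.0536). They summed to 80.6 to 93.6 CPM in wt and 65.0 to 89.7 CPM in IntuKO libraries, with Tyrp1 at 0 in all 12.

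A wider list of glial genes was then read in the same fit. It held 39 genes, of which 22 were in the table and 19 tested, the 4 members among them. Over both sides 1 of the 19 rose, 2 fell, and the median log2 difference was 0.07 beside 0.00 for all tested genes. Of all genes 2.08% were called higher and 3.62% lower. At an unadjusted p under 0.05 there were 11 of the 19, in both directions, against 19.7% of all genes. Moxd1, a monooxygenase-like protein of migrating crest, rose from 9.44 to 12.2 CPM in wt to 10.6 to 21.9 CPM in IntuKO libraries (0.67, SE 0.14, adjusted p = 0.0113). Itga4, an integrin of migrating crest and blood cells, fell (-0.42, SE 0.10, adjusted p = 0.0297), as did Cadm3, an adhesion molecule of axons and glia (-0.33, SE 0.08, adjusted p = 0.0295). The genotypes overlapped in all 3. Pou3f1, a regulator of myelination, stood at 0.38 (SE 0.11, adjusted p = 0.0581). In edgeR none of the list was called with the pairs summed, where 7 of 20 had an unadjusted p under 0.05 (13.2% of all genes) and Moxd1 an adjusted p of 0.0993; limma-voom with pairs as a random effect called 4. The count was also 0 without both sides of wt 1, of wt 2 or of IntuKO 3.

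A closer marker of the lineage, Cdh19, a cadherin of precursors, was low and was not called. It was at 0.472 to 1.34 CPM in wt and 0.579 to 2.35 CPM in IntuKO libraries (0.71, SE 0.32, adjusted p = 0.234). S100b, Egr2 and Gpr37l1 were too low to test in the main fit. With the pairs summed S100b was tested and not called in edgeR (0.17, SE 0.48, adjusted p = 0.920). In whole lungs fewer cells of a type and less RNA per cell cannot be told apart.

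Genes of autonomic neurons, which share the crest origin, were counted in the same way. Of 15 tested 8 fell and 0 rose, with a median log2 difference of -1.02, where 3.62% of all genes were called lower. With the pairs summed 5 were called, against 1.38% of all genes. Phox2a, a factor of autonomic identity, stood at -2.14 (SE 0.27, adjusted p = 3.60e-04), Hand2 at -1.75 (SE 0.27, adjusted p = 0.00134) and Stmn2, a tubulin-binding protein of growing axons, at -1.43 (SE 0.15, adjusted p = 7.46e-05). The neuronal and the glial lists come from the same comparison and libraries, and the difference between the lists was not tested.

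**Figure D4:**
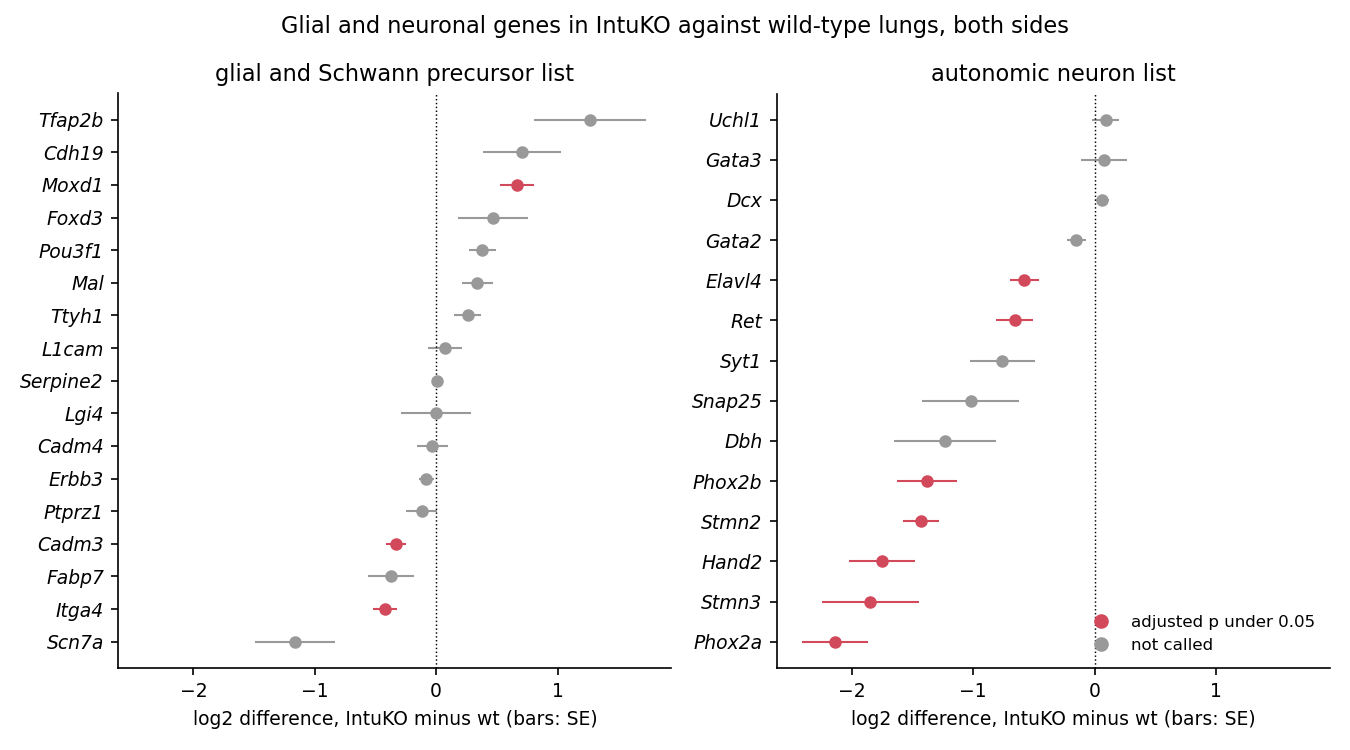
Log2 difference of IntuKO minus wt over both sides (horizontal axes) for 17 tested glial and 14 tested autonomic neuron genes; points are edgeR estimates, bars are ± SE and red marks an adjusted p under 0.05. The glial genes lie on both sides of 0 with 3 called, and 11 of the 14 plotted neuronal genes lie below 0 with 7 called.

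Set beside each other, genotype and side took different shares of the variation of each member. On the log2 CPM scale, genotype held 45.3% of the sum of squares of Scn7a, pairs within a genotype 40.0%, side 12.7% and the rest 1.95%. For Foxd3 genotype held 15.4%, pairs 73.1% and side 0.941%. Erbb3 had 14.6% for genotype, 68.7% for pairs and 2.90% for side. Fabp7 had 25.0% for genotype, 35.9% for pairs, 0.00628% for side and 39.1% for the rest. Scn7a was thus the member with the largest shares for genotype and for side. In all 4 the pairs held more than side. Pairs within a genotype span more degrees of freedom than side, so a larger share is expected for them. The shares therefore do not rank pairs against side. The glial list as a whole had 0 of 19 genes called between the sides in edgeR, DESeq2 and limma-voom, 4 at an unadjusted p under 0.05 (5.29% of all genes), and 1, Scn7a, with the pairs as a block. Its median left minus right difference was -0.03 over both genotypes, -0.18 in wt with 14 of 19 below 0, and 0.05 in IntuKO with 12 of 19 above 0. The difference between these medians was not tested. Its summed level was 674 to 729 CPM in wt left, 726 to 785 in wt right, 695 to 724 in IntuKO left and 695 to 749 in IntuKO right lungs.

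The genes whose levels followed Scn7a most closely were ranked by Pearson's r of log2 CPM over the 12 libraries among 8143 genes, which share libraries and scaling with it. They were Ppp1r14a, an inhibitor of myosin phosphatase in smooth muscle (r = 0.958), Rassf10, a Ras-association domain protein (r = 0.945), and Ano1, a calcium-activated chloride channel (r = 0.939). After the group means were removed r was 0.905, 0.948 and 0.891. The genes were picked by r over the same libraries, so these values are a description and no separate test of the likeness. Their own changes were smaller. Ano1 fell from 81.6 to 94.4 CPM in wt to 45.8 to 74.9 CPM in IntuKO libraries (-0.50, SE 0.09, adjusted p = 0.00409), while Ppp1r14a (-0.29, adjusted p = 0.0812) and Rassf10 (-0.26, adjusted p = 0.218) were not called. All 6 tested smooth muscle genes were called lower (median -0.91), led by Actg2 (-1.99, SE 0.07, adjusted p = 6.92e-10), where 3.62% of all genes were called lower. With the pairs summed 5 were called, against 1.38% of all genes. The 6 summed to 810 to 945 and 892 to 987 CPM in wt left and right, and to 404 to 435 and 399 to 432 CPM in IntuKO left and right. That sum stayed within a narrow range in IntuKO, where Scn7a spanned 9.23-fold, and its part in the result for Scn7a was not tested.

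**Figure D5:**
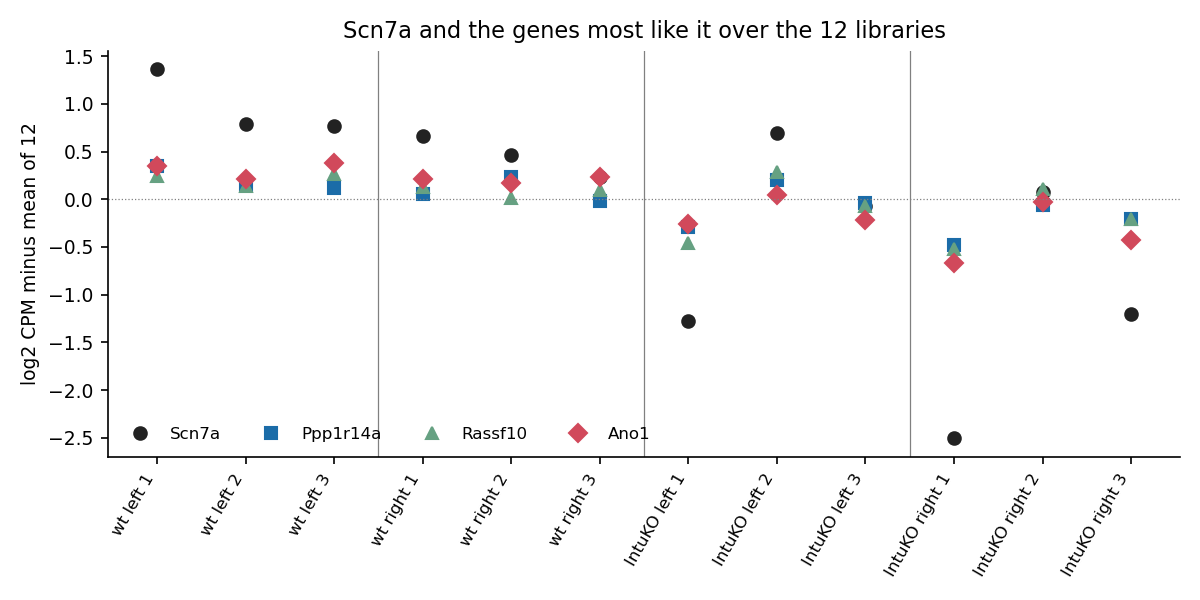
Log2 CPM minus the mean of the 12 libraries (vertical axis) for Scn7a, Ppp1r14a, Rassf10 and Ano1 in each library (horizontal axis, by group). Scn7a and the other 3 genes are lowest in the right library of IntuKO pair 1, and Scn7a moves over a wider range than they do.

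For the other members the highest r over the 12 libraries was lower than for Scn7a. Erbb3 was followed by Rps6ka3 (r = 0.856), a kinase of the MAP kinase pathway, Tada2b (0.822) and Arrb1 (0.819). Fabp7 was followed by Tstd2 (0.900), Brinp2 (0.867) and Dok1 (0.861), and Foxd3 by Lonrf2 (0.930), the neuronal adaptor Shc2 (0.919) and Paip2b (0.877). With the group means removed r was 0.941 for Rps6ka3 with Erbb3 and 0.963 for Shc2 with Foxd3. None of these 9 genes was called between the genotypes in edgeR.

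Markers of further cell types describe the tissue around these cells. Across all genes 2.08% were called higher and 3.62% lower, or 1.38% in either direction with the pairs summed. Of 9 mesenchymal genes 3 rose, Prrx1 most by the test (0.86, SE 0.09, adjusted p = 7.03e-05), and 1 was called with the pairs summed. Of 10 myeloid genes 6 fell, with Laptm5 at -0.53 (SE 0.06, adjusted p = 1.05e-04), and 2 were called with the pairs summed. Of 5 Hedgehog targets 3 fell, all called in both fits. Upk3b, 1 of 4 mesothelial genes, fell (-0.32, SE 0.07, adjusted p = 0.0113), and Sox18, 1 of 9 endothelial genes, rose (0.21, SE 0.05, adjusted p = 0.0257). Both calls were lost with the pairs summed (adjusted p = 0.0884 and 0.164). The skeletal and cardiac muscle lists, with 4 tested genes each, share Actc1, which fell (-1.70, SE 0.17, adjusted p = 7.03e-05). Pax7 of the first and Myl2 of the second rose, and the call of Myl2 was lost with the pairs summed (adjusted p = 0.124).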

How the data were processed

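RNA from whole lungs of 12 mouse samples was sequenced, and the authors deposited 1 table of raw counts per gene. Per the submitters' processing notes, FastQC, HISAT2 and featureCounts were used with GRCm38; versions, strand setting and annotation release were not given in the sources used here. Columns were matched to samples by their labels. Of 31078 genes 30915 (99.5%) matched a symbol; 1 incomplete row was left out.

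The counts were filtered (filterByExpr, minimum count 10, total 15), TMM scaled (factors 0.992 to 1.01) and fitted with edgeR 4.0.16 in R 4.3.3 (glmQLFit and glmQLFTest, 4 groups, 8 residual degrees of freedom). P-values were Benjamini-Hochberg adjusted over 9519 genes at 0.05. limma 3.58.1 and DESeq2 1.42.0 were alternatives. The scripts were tested on simulated data. Replicates differed beyond counting noise (chi-square per degree of freedom 4.57 to 13.6).

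Left and right libraries of 1 genotype and number were taken as pairs, from the titles' numbers and because all 6 correlated over 0.1 (0.272 to 0.517). Other left and right libraries of a genotype gave -0.417 to -0.0187 and same numbers across genotypes -0.0977 to -0.0509. Deviations from group means cancel within each group. Positive values for the pairs thus make the other left-right values of a genotype negative on balance, and these are no separate support for the pairing.

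Members, gene lists and tests were chosen with earlier results of these data known. Named were the 4 members, called genes of the lists by smallest p (up to 8 of the glial list and 4 of others, or the lowest p where few or none were called), all tested relatives and ErbB genes, 3 genes most alike per member (mean of at least 2 CPM, offset 0.5), and Gli1 and Hoxa6. Intu, Xist, Pdk1 and further glial markers were added after their values were seen. A few list genes enter the counts of their lists and are not reported here by name.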

Additional observations from a re-analysis of the deposited data

Results flagged for a closer look

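Cdh19 and Btc were the genes, among 36 tested genes of the glial and related lists, whose scaled left-right differences had one sign in the wt pairs and the other in the IntuKO pairs. The share of all tested genes with this pattern was not counted, so the pattern is not read as a result about these lists. In wt pair 2 the sign for Btc came from library scaling alone, since both sides had 5 counts. For Cdh19 left minus right was -0.99, -1.25 and -0.40 in wt and 0.34, 0.78 and 1.58 in IntuKO on the log2 scale, and the difference between genotypes was 1.62. For Btc the values were 0.59, 0.02 and 2.43 in wt and -0.15, -1.07 and -0.32 in IntuKO, and the difference was -1.45. Tested as an interaction in edgeR, neither was called (adjusted p = 1.00 for each). The counts were 5 to 24 per library for Cdh19 and 2 to 21 for Btc.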

How the results depend on the processing

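No member was called in the main tests, so no call could be lost. Of 187 alternative values of Scn7a, 168 kept direction and call, 17 gained a call and 2 changed sign. Erbb3, Fabp7 and Foxd3 were never called and changed sign in 6, 15 and 17 values. Scn7a between genotypes over both sides was called in 7 of 27 alternatives (adjusted p 8.91e-30 to 0.286 over the 27). The lowest value came from the fit without a filter on low counts, where the estimate stayed close to that of the main fit. Its size reflects a smaller standard error in that fit and not a larger difference. The cause of each change was not tested.

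With the replicate block of genotype and number, the counts of called genes were 127 between the sides over both genotypes, 63 in wt, 43 in IntuKO and 2 for the interaction, and Scn7a was called at 0.70, 0.53 and 0.88. A block of the number alone puts wt and IntuKO libraries of 1 number together. Such libraries of 1 side did not deviate together (correlation -0.0977 to -0.0509), so this block has no basis in the data. With it Scn7a between genotypes was -1.27 (adjusted p = 0.0321), a call counted among the alternatives above, and the left count was 177. With the replicate block as a random effect the counts were 344 between genotypes and 23, 13 and 2 between the sides over both genotypes, in wt and in IntuKO; Scn7a was called at -1.41, and Fabp7 between sides (0.01) and the Foxd3 interaction (0.03) changed sign. Left and right summed gave 141 genes.

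DESeq2 called 193 genes on the left, 224 on the right, and 16, 11 and 4 between the sides over both genotypes, in wt and in IntuKO. limma-voom called Scn7a at -1.41 and turned Fabp7 between sides to 0.01 and the Foxd3 interaction to 0.03. Without a filter on low counts 1084 genes were called between genotypes, 510 on the left and 595 on the right, 79, 46 and 31 between the sides in the same order as above, and 6 for the interaction; Scn7a was called at -1.15, -1.0 and -1.31 between genotypes and at 0.69, 0.54 and 0.84 between sides. The estimates of Scn7a without the filter were near the main ones, so its calls there came with smaller standard errors and not with larger differences. For Foxd3 the standard error between genotypes was 0.21 without the filter and 0.29 in the main fit. Fits of only the groups compared gave 49 genes on the left and 8 between the sides in wt.

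Leaving out 1 library or pair gave 263 to 636 called genes between genotypes, 45 to 137 on the left, 48 to 175 on the right, 1 to 8 between sides over both genotypes, 0 to 7 in wt and 0 to 1 in IntuKO. Scn7a ranged from -1.86 to -0.76 between genotypes, -1.55 to -0.63 on the left, -2.17 to -0.88 on the right and -0.24 to 1.17 for the interaction. It was called over both sides without IntuKO left 2 (-1.43), IntuKO right 2 (-1.58) or both. Fabp7 ranged from -0.28 to 0.08 on the left and -0.12 to 0.11 between sides. Erbb3 ranged from -0.09 to 0.04 on the right and -0.05 to 0.08 between sides in wt. Foxd3 ranged from 0.02 to 0.69 between genotypes, -0.31 to 0.14 between sides over both genotypes, -0.31 to 0.21 in wt, -0.55 to 0.35 in IntuKO and -0.49 to 0.41 for the interaction. The glial list held 0 to 5 called genes and the neuronal list 6 to 9. Counts of 14 to 55 limit Foxd3 and 20 to 55 limit Fabp7.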
